A study of Mus musculus with 54 samples.

Results

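The genes described here are 43 ribosome biogenesis factors of mouse liver, the proteins that transcribe, modify, cleave and assemble the RNA of new ribosomes. They were taken by name from a fixed list and kept if their mean expression over all livers reached 1 FPKM (fragments scaled by transcript length and library). All 43 of the 43 listed genes met this, among the 24346 gene symbols measured. RNA was sequenced from 54 livers of 3 genotypes, collected every 4 h at 6 times (ZT counts hours from lights on), which makes 18 groups of 3 livers. WT mice express the core clock gene Bmal1 (symbol Arntl) in all tissues. In KO mice a floxed STOP sequence blocks Bmal1. RE mice carry the same blocked allele together with Syt10-Cre, which restores Bmal1 in the suprachiasmatic nucleus, where the master clock of the body sits, while by design their liver stays without it. The design thus asks which daily changes and levels go with the clock of the brain and which with the clock of the liver. Age, sex, feeding and lighting of the mice are not given in the labels used here, and nothing in them says how livers of a group were housed or processed, so p-values measure the spread between these livers. In bulk RNA of this kind, fewer cells of a type and less RNA per cell cannot be told apart.

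Ribosome biogenesis starts in the nucleolus, where RNA polymerase I transcribes a long precursor of ribosomal RNA. Small nucleolar RNAs, held in box C/D and box H/ACA particles, guide the methylation and pseudouridylation of that precursor, and large sets of assembly factors then fold and cleave it into the small and the large subunit. The pathway uses much of a growing cell's energy and is a textbook target of MYC and of the nutrient sensor mTORC1. In liver, which changes size and protein content with feeding, production of ribosomes is known to follow the time of day.

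CACGTG, the canonical E-box, is the core motif bound by BMAL1 with CLOCK and also by MYC with MAX. The letters CACGTG (the same on both strands) were searched from 250 bases before to 50 bases after each RefSeq transcription start. Of the members, 38 had such a window and 8 of them held the motif (21.1%), against 8.09% of all 27025 genes with a window. Counted by window, it was 8 of 47 against 2349 of 32851 (7.15%). The members' windows also had a higher median GC content, 57.3% against 52.7%. In 6 of the 8 the motif lay in the 50 bases after the start, a position that 15.2% of all windows with the motif shared. The 8 stretches are shown because they are the searched motif in its setting within these genes. They are printed 5′ to 3′ on the gene's strand, from GRCm38.p6, the motif in capitals, for Ltv1 (chr10:13193092-13193121, minus strand), Tsr1 (chr11:74898092-74898121), Wdr43 (chr17:71616220-71616249), Pes1 (chr11:3963965-3963994), Nop2 (chr6:125131811-125131840), Grwd1 (chr7:45830740-45830767, minus strand), Mybbp1a (chr11:72441355-72441376) and Imp4 (chr1:34439696-34439725).
Ltv1: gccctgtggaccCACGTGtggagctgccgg
Tsr1: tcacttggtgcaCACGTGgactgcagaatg
Wdr43: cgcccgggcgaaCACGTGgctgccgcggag
Pes1: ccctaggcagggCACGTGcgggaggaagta
Nop2: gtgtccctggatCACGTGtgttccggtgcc
Grwd1: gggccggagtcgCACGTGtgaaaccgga
Mybbp1a: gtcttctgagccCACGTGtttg
Imp4: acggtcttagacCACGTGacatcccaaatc

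The motif lay 3 bases after the start in Pes1 and 18 bases after it in Wdr43, and 116 bases before it in Imp4. Members with the motif were no more often rhythmic than those without it: 3 of 8 were called rhythmic in WT and 4 of 8 in RE, against 13 and 19 of the 30 members whose window lacked it. These are counts over few genes, given without a test, beside 34.8% of all tested genes called in WT and 46.8% in RE. Npm1, Fbl, Rrp12, Bop1 and Rrs1 had no entry in the promoter table.

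Before the results, the libraries themselves were compared. Arntl ran from 0.202 to 10.3 FPKM in WT, 7.60 to 15.5 in RE and 9.76 to 14.2 in KO, values over the whole gene that check nothing of the STOP allele. The hepatocyte marker Alb was listed at 0 in all 18 WT livers, 2 RE livers and 1 KO liver, so whatever made that difference cannot be told apart from genotype wherever KO or RE is compared with WT. The other 7 hepatocyte markers were above 0 in every liver. Relative depth, read from the steps between low values, spanned 0.72 to 1.54 of the average library, with medians of 0.90 in WT, 1.02 in RE and 1.09 in KO. The median SD between livers of a group, on log2(FPKM + 1), was 0.13 in WT, 0.20 in RE and 0.17 in KO over all tested genes. The members varied more, by 0.16, 0.28 and 0.22.

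The members spanned a wide range of levels per transcript length. Nop10, a small core protein of the box H/ACA particle, was the highest with a mean of 129.9 FPKM over all livers, followed by Npm1, the nucleolar chaperone nucleophosmin, with 108.1 FPKM. Next came Imp3 (50.7 FPKM), the rRNA methylase fibrillarin encoded by Fbl (44.8 FPKM), Nhp2 (35.1 FPKM) and Ncl, which encodes nucleolin (27.2 FPKM). The lowest were Noc3l (1.94 FPKM), Polr1e (1.58 FPKM) and Rrp1b (1.18 FPKM). The median member stood at 7.93 FPKM, and 15 members were above 10 FPKM.

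**Figure D1:**
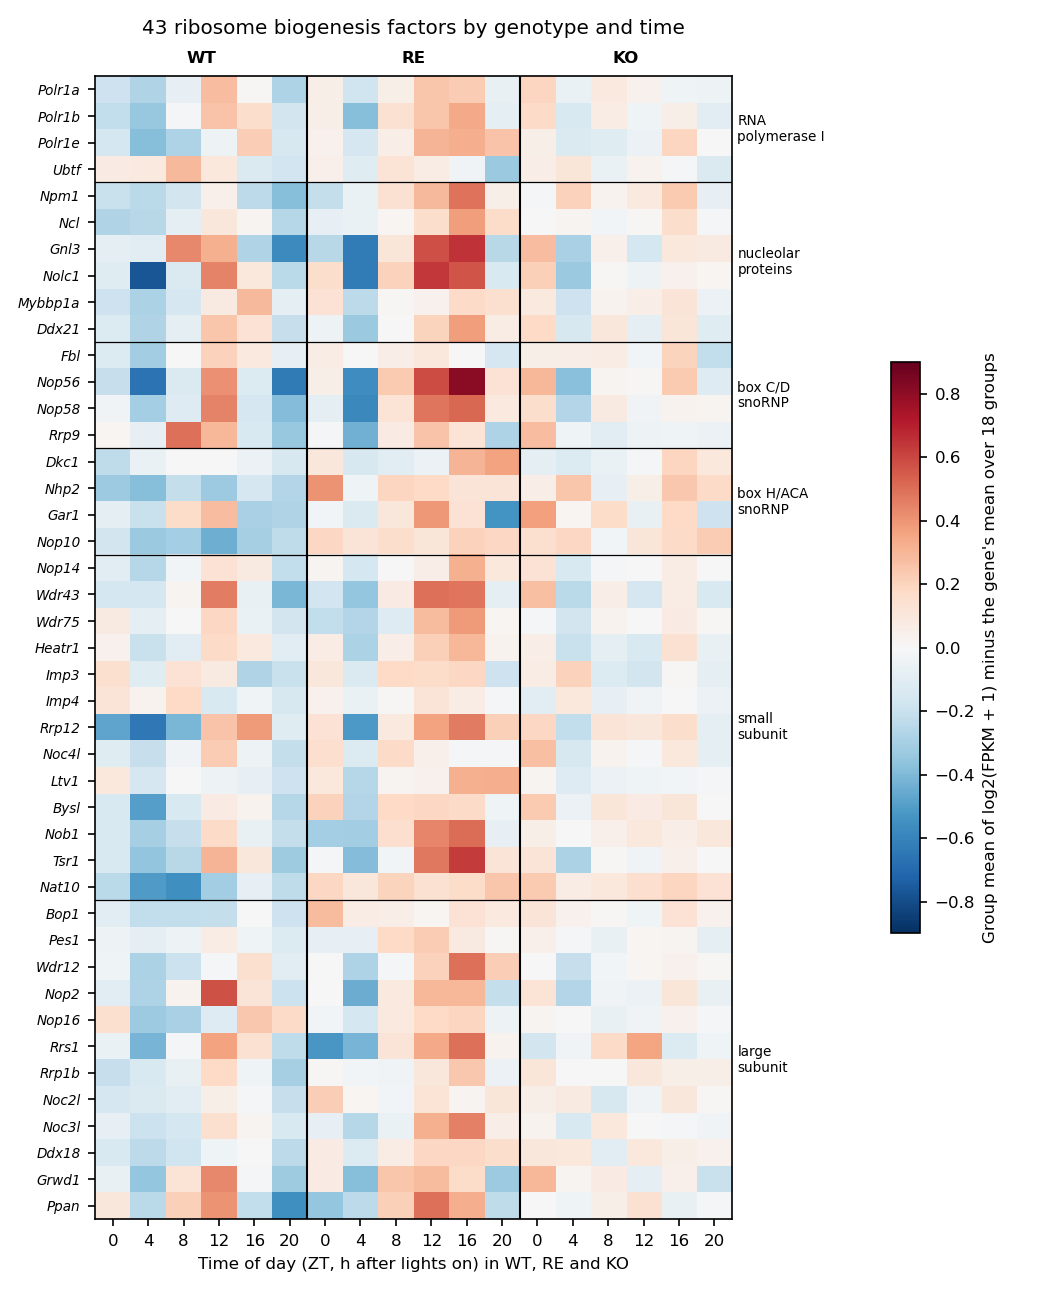
Group means of log2(FPKM + 1) for the 43 factors, each as its difference from the gene's mean over 18 groups (colour), by time of day (x axis, ZT in h) in WT, RE and KO and ordered by role. WT columns are darkest red at ZT12 and RE columns at ZT16, both are mostly blue at ZT4, and the KO columns stay paler.

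In WT and in RE, most of these genes had their highest level around the start of the night and their lowest in the first part of the day. In WT the highest of the 6 group means was at ZT12 for 27 of 43 members, and the lowest was at ZT4 for 22 and at ZT20 for 15. In RE the highest was at ZT16 for 29 members and the lowest at ZT4 for 30. The RE ZT16 means include liver 0, which stood apart. The mean log2 deviation of the 43 members from their means over all livers was 0.84 there. It was 0.13 and -0.08 in the other RE ZT16 livers, and 0.16, 0.36 and 0.23 in the RE livers at ZT12. In KO the highest group mean was at ZT0 for 21 members and at ZT16 for 14, and the lowest was at ZT4 for 24. The fold from the lowest to the highest group mean had a median of 1.48 in WT, 1.66 in RE and 1.25 in KO. It exceeded 1.5 for 21 members in WT, 24 in RE and 4 in KO. These times and folds were not counted over all tested genes, nor without RE ZT16 liver 0.

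A 24 h cosine was fitted to each gene, whose amplitude is the log2 difference from mean to peak, and a rhythm was called at an adjusted p under 0.05 over all 10932 genes tested. In WT 18 members were called (41.9%), beside 34.8% of all tested genes, and 24 had an unadjusted p under 0.05. In RE 26 members were called (60.5%), beside 46.8% of all tested genes, and 30 had an unadjusted p under 0.05. In KO limma called 0 of 43 members, beside 0.0366% of all tested genes, and 0 members had an unadjusted p under 0.05. The median amplitude of the 43 members was 0.21 in WT, 0.25 in RE and 0.07 in KO, beside 0.14, 0.16 and 0.08 over all tested genes. The order of the WT and RE counts depended on the fit: with the livers of each genotype fitted alone, 31 members were called in WT and 14 in RE, against 18 and 26 with the spread pooled over genotypes. In 36 of 43 members the amplitude in KO was below that in both other genotypes. This was not counted over all tested genes, whose median amplitude was also lowest in KO.

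The difference of rhythm between genotypes was tested in its own right, and it separated few members one by one. Between WT and KO 1 member was called, Nop16, beside 9.06% of all tested genes, with 9 members at an unadjusted p under 0.05. Between RE and KO 0 members were called by limma, beside 3.07% of all tested genes, with 15 at an unadjusted p under 0.05. Between WT and RE 4 were called (Gnl3, Dkc1, Ltv1 and Nop16), beside 14.1% of all tested genes, with 8 at an unadjusted p under 0.05. A call in WT or RE without one in KO is therefore not by itself a shown difference for the other members.

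**Figure D2:**
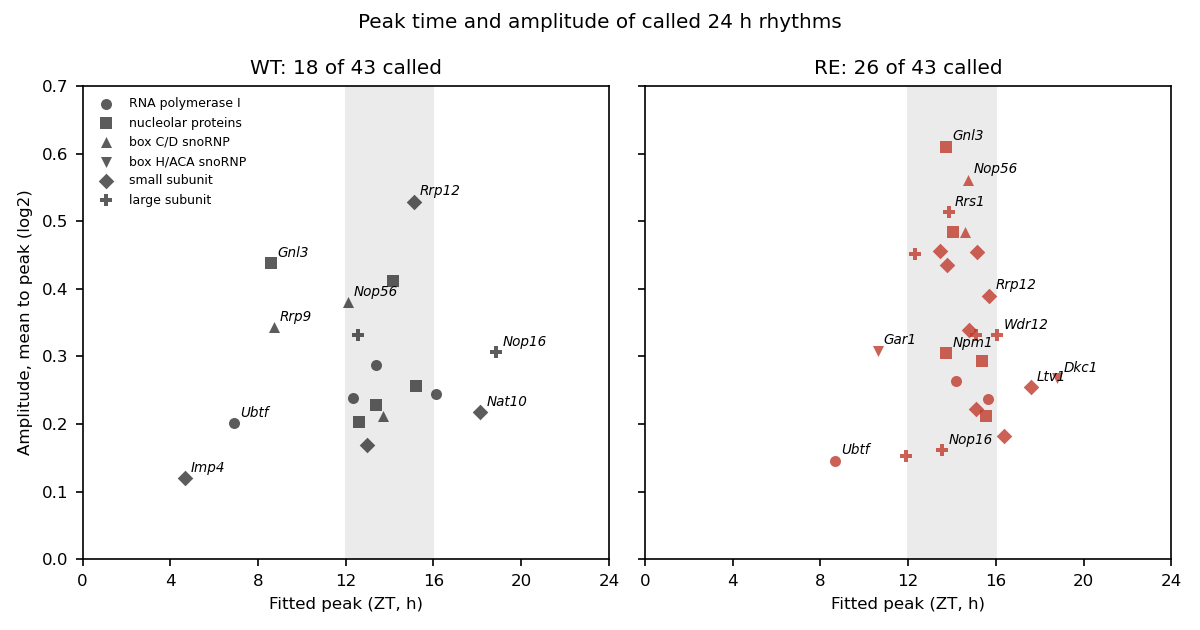
Fitted peak time (x axis, ZT in h) and amplitude (y axis, log2, mean to peak) of the members with a called rhythm, 18 in WT and 26 in RE, with a symbol for each role. The grey band marks ZT12 to ZT16, which holds 11 of the 18 WT points and 19 of the 26 RE points.

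The called rhythms were gathered in time. In WT the fitted peaks ran from ZT4.67 (Imp4) to ZT18.8 (Nop16) with a median of ZT13.2, and in RE from ZT8.67 (Ubtf) to ZT18.8 (Dkc1) with a median of ZT14.7. Of the called members, 61.1% in WT and 73.1% in RE peaked between ZT12 and ZT16, beside 16.3% and 16.2% of all called genes. That window was chosen after the values were seen. Called in both genotypes were 11 members: Polr1b, Polr1e, Ubtf, Ncl, Gnl3, Nolc1, Ddx21, Nop56, Nop14, Rrp12 and Nop16. Of these, 8 peaked later in RE, with a median shift of 1.78 h and a range from 5.31 h earlier (Nop16) to 5.13 h later (Gnl3). A further 7 were called in WT and not in RE, 15 in RE and not in WT, and 10 in neither. Neither the shift nor these sets were counted over all tested genes. Among the members called in both, Polr1b, Nolc1, Ddx21, Nop14, Rrp12 and Nop16 lost the RE call without RE ZT16 liver 0.

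**Figure D3:**
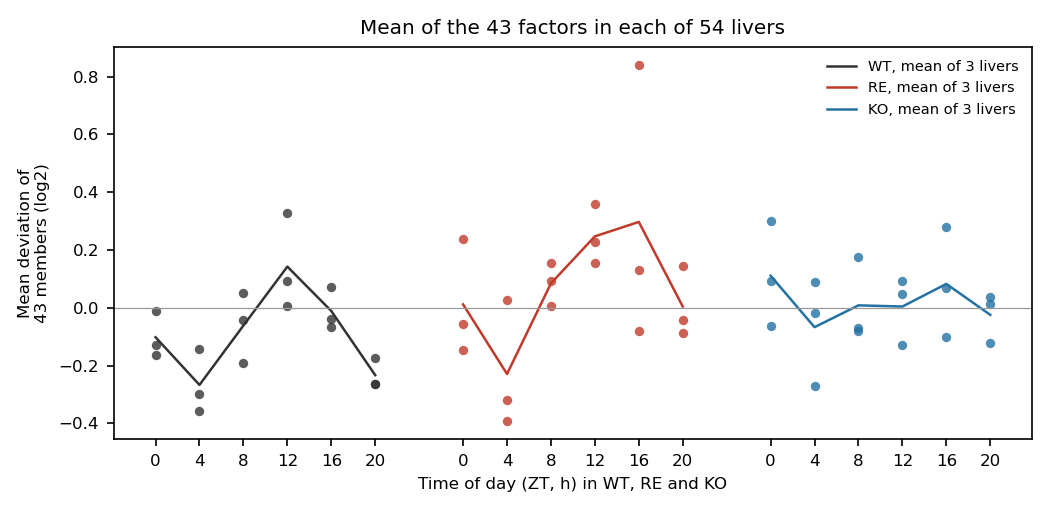
Mean over the 43 factors of each liver's difference from the gene's mean over all 54 livers (y axis, log2), by time of day (x axis, ZT in h), 1 point per liver with lines through the means of 3 livers. RE ZT16 liver 0 lies at 0.84, above every other liver, while the 18 KO livers lie between -0.27 and 0.30.

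The members also varied together between livers of the same group. RE ZT16 liver 0 stood apart: the mean deviation of the 43 members from their means over all livers was 0.84 there (log2), against 0.13 and -0.08 in the other livers of that group, and it was the highest of the 3 for 38 of 43 members. Other groups held such livers with smaller gaps, of which 3 are given. WT ZT12 liver 2 was at 0.33 against 0.09 and 0.01 and was highest for 36 members. RE ZT4 liver 2 was at 0.03 against -0.32 and -0.39 and was highest for 38. KO ZT0 liver 1 was at 0.30 against 0.09 and -0.06 and was highest for 32. Their relative depths were 1.19, 1.02, 0.88 and 0.95.

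Over the 54 livers, deviations from the group mean had a median Pearson r of 0.53 between members (903 pairs, of which 838 or 92.8% were above 0). Between a member and each of the 10889 other tested genes the median was 0.0082, with 51.1% above 0. These values describe livers that share library and depth, and no test was made. The members most like the rest were Grwd1 (mean r with the others 0.65), Nop2 (0.64) and Rrp12 (0.63), all assembly factors. The highest pair was Nop58 and Nop2 (0.92). The least alike were Npm1 with a mean r of -0.14, Nop10 with 0.088 and the Pol I factor Ubtf with 0.15.

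Since RE ZT16 liver 0 stood apart, the counts of members called for rhythm, rhythm difference or level difference were also taken without it. In RE 17 of the 26 rhythms were then still called and 9 were not (Polr1b, Nolc1, Ddx21, Nop58, Nop14, Heatr1, Rrp12, Nop16 and Ppan). In WT, whose spread is pooled with RE, 23 members were called without it, and the WT and KO rhythm difference was called for 4. In RE 15 calls outlasted the removal of any single liver, and in WT 8 did. The counts by time of day, fold, fitted peak, peak shift and lower KO amplitude were taken only with RE ZT16 liver 0 included.

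All 4 RNA polymerase I genes were called in WT and 3 of 4 in RE, beside 34.8% and 46.8% of all tested genes. Polr1b, the second largest subunit (chromosome 2, 129100995 to 129126594, mm10), read 3.66, 3.35 and 4.22 FPKM in the WT livers at ZT4 and 5.96, 5.45 and 7.14 FPKM at ZT12. The WT livers at those times did not overlap. They were the times of the lowest and highest Polr1b mean in WT. Most times below were picked likewise, which favours a gap. In RE it read 3.06, 3.30 and 4.54 FPKM at ZT4 and 11.3, 5.81 and 4.14 FPKM at ZT16, where liver 0 alone was high and the range overlapped that of ZT4. The amplitude was 0.29 in WT (SE 0.08, adjusted p 0.0127, peak ZT13.4), 0.26 in RE (SE 0.08, adjusted p 0.0180) and 0.01 in KO (SE 0.08, adjusted p 0.996). The RE call ended without RE ZT16 liver 0 (adjusted p 0.0916) or RE ZT4 liver 0.

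Polr1e, a subunit that assists initiation and elongation (chromosome 4, 45018583 to 45036565), had called rhythms of 0.24 in both WT (adjusted p 0.00388, peak ZT16.1) and RE (adjusted p 0.00390, peak ZT15.6). Its WT livers read 0.973, 0.894 and 0.973 FPKM at ZT4 and 2.41, 1.81 and 1.72 FPKM at ZT16, without overlap. Ubtf, the factor that opens ribosomal DNA for Pol I (chromosome 11, 102304560 to 102319742), peaked earlier than the other 3. In WT it read 10.6, 12.6 and 13.4 FPKM at ZT8 and 8.31, 8.48 and 8.83 FPKM at ZT20, again without overlap, for an amplitude of 0.20 (SE 0.05, adjusted p 0.00261) with a peak at ZT6.89. In RE the amplitude was 0.15 (SE 0.05, adjusted p 0.0280) with a peak at ZT8.67, and the call ended without RE ZT20 liver 0 (adjusted p 0.141), without RE ZT8 liver 1, and without the 3 KO and RE livers with Alb at 0 (adjusted p 0.155). Polr1a, the largest subunit, was called in WT alone (0.24, adjusted p 0.0139, against 0.18 and 0.0688 in RE), and the difference between the genotypes was not called (adjusted p 0.693). Its WT call ended without WT ZT12 liver 2 (adjusted p 0.0687).

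**Figure D4:**
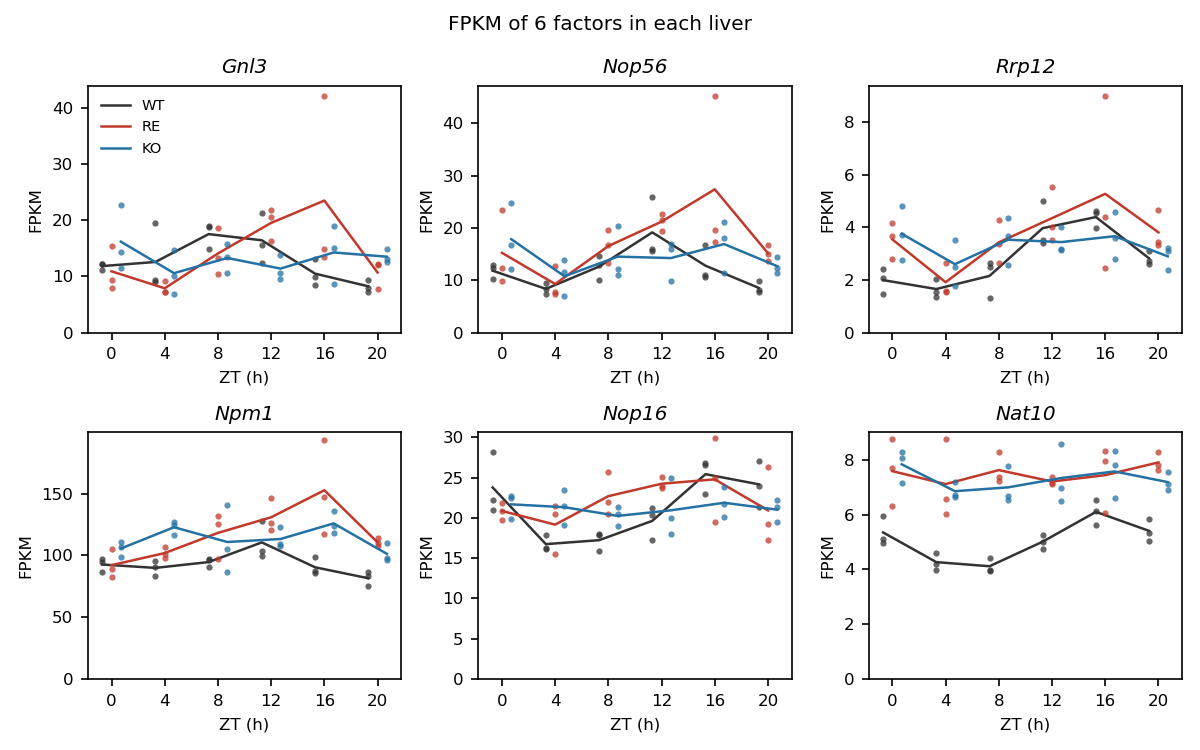
FPKM (y axis, from 0) of 6 factors in every liver by time of day (x axis, ZT in h, genotypes shifted slightly sideways to show the points), with lines through the means of 3 livers. For Gnl3, Nop56 and Rrp12 the RE mean at ZT16 is pulled up by 1 liver, Nop16 is lowest at ZT4 and ZT8 in WT, and Nat10 is lower in WT than in RE and KO.

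Of the 6 abundant nucleolar proteins, 5 were called in WT and 5 in RE, beside 34.8% and 46.8% of all tested genes. Gnl3 encodes nucleostemin, a nucleolar GTPase needed for processing of the large subunit's RNA (chromosome 14, 31012433 to 31019152). In WT it read 18.7, 14.9 and 18.9 FPKM at ZT8 and 7.98, 9.42 and 7.29 FPKM at ZT20. In RE it read 7.27, 7.15 and 9.20 FPKM at ZT4, 16.3, 21.8 and 20.5 FPKM at ZT12 and 42.1, 13.4 and 14.9 FPKM at ZT16. The WT livers at ZT8 and ZT20, and the RE livers at ZT4 and ZT12, did not overlap, and RE ZT16 liver 0 was above every other RE liver, the next being 21.8 FPKM at ZT12.

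The Gnl3 amplitude was 0.44 in WT (SE 0.13, adjusted p 0.0218, peak ZT8.59) and 0.61 in RE (SE 0.13, adjusted p 0.000867, peak ZT13.7), the largest of any member in RE. In KO it was 0.15 (SE 0.13, adjusted p 0.825), with livers between 6.94 and 22.7 FPKM in no clear order of time. Its rhythm differed between WT and RE by 0.67 (SE 0.18, adjusted p 0.0273). That call ended without RE ZT16 liver 0 (adjusted p 0.0749) and without 3 other single livers. Exons of Gnl3 overlap exons of Pbrm1 on the other strand.

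Npm1 was called in RE and not in WT. Its RE livers read 88.8, 82.3 and 105 FPKM at ZT0 and 147, 117 and 193 FPKM at ZT16. Its WT livers read 86.6, 83.0 and 74.9 FPKM at ZT20 and 104, 99.8 and 128 FPKM at ZT12. In neither genotype did the livers of these times overlap. The amplitude was 0.30 in RE (SE 0.05, adjusted p 0.000149, peak ZT13.7) and 0.13 in WT (SE 0.05, adjusted p 0.134), and the difference missed the threshold (0.25, SE 0.08, adjusted p 0.0638). In the WT libraries alone the WT rhythm was called (adjusted p 0.0270).

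Ncl, which binds the rRNA precursor (chromosome 1, 86344719 to 86359400), was called in both genotypes whichever liver was left out. Its WT livers read 21.8, 22.6 and 22.1 FPKM at ZT0 and 27.6, 27.8 and 32.0 FPKM at ZT12. Its RE livers read 27.5, 23.2 and 25.9 FPKM at ZT0 and 46.4, 31.7 and 30.0 FPKM at ZT16. The amplitudes were 0.20 in WT (SE 0.05, adjusted p 0.00228, peak ZT12.6) and 0.21 in RE (SE 0.05, adjusted p 0.00115, peak ZT15.5). The remaining nucleolar members Nolc1 and Ddx21, an RNA helicase, were called in both, and Mybbp1a in WT alone, with amplitudes of 0.16 to 0.48 in these 2 genotypes. The WT calls ended without any of 24 livers for Nolc1, 11 for Ddx21 and 5 for Mybbp1a. Both RE calls ended without RE ZT16 liver 0 (adjusted p 0.0591 for Nolc1 and 0.0527 for Ddx21).

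Of the box C/D proteins, which carry the methylation guides, 3 of 4 were called in WT and 2 of 4 in RE. The shares over all tested genes were 34.8% and 46.8%. Nop56, a core protein of the particle (chromosome 2, 130274430 to 130279313), read 7.37, 8.27 and 9.42 FPKM in WT at ZT4 and 15.9, 15.6 and 25.9 FPKM at ZT12. In RE it read 7.73, 7.35 and 12.8 FPKM at ZT4, 19.3, 21.6 and 22.7 FPKM at ZT12 and 45.2, 19.6 and 17.3 FPKM at ZT16. In KO it read 11.5, 13.8 and 6.95 FPKM at ZT4 and 16.7, 24.7 and 12.2 FPKM at ZT0. Only in KO did the livers of the lowest and the highest time overlap.

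The Nop56 amplitude was 0.38 in WT (SE 0.12, adjusted p 0.0397, peak ZT12.1), 0.56 in RE (SE 0.12, adjusted p 0.00127, peak ZT14.7) and 0.14 in KO (SE 0.12, adjusted p 0.834). The RE call held without RE ZT16 liver 0, and the WT call ended without any of 11 livers. Its partner Nop58 was called in RE (0.48, SE 0.13, adjusted p 0.00946), a call that ended without RE ZT16 liver 0 (adjusted p 0.0672), and reached 0.23 in WT (adjusted p 0.331). Rrp9, which binds the U3 snoRNA, read 6.92, 6.78 and 8.24 FPKM in WT at ZT8 and 3.50, 4.26 and 3.22 FPKM at ZT20. Its WT amplitude was 0.34 (SE 0.09, adjusted p 0.0115, peak ZT8.71), against 0.25 in RE (adjusted p 0.0660). Rrp9 exons overlap Parp3 on the other strand, and those of Nop56 overlap Idh3b. Fbl was called in WT alone (0.21, adjusted p 0.0203, against 0.08 and 0.536 in RE).

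Of the box H/ACA proteins, which carry the pseudouridylation guides, 0 of 4 were called in WT by limma (0 at an unadjusted p under 0.05) and 2 of 4 in RE. The shares over all tested genes were 34.8% in WT and 46.8% in RE. In the WT livers fitted alone Gar1 and Nop10 were called (adjusted p 0.0340 and 0.0406), and in the RE livers alone Gar1 was not (adjusted p 0.159). Dkc1 encodes dyskerin, the pseudouridine synthase (chromosome X, 75095854 to 75109777). In RE it read 5.61, 3.85 and 5.32 FPKM at ZT4 and 7.93, 6.89 and 7.23 FPKM at ZT20, without overlap. In WT it read 5.04, 4.82 and 5.86 FPKM at ZT4 and 4.46, 5.38 and 4.80 FPKM at ZT20, with overlap. These were the times of the lowest and highest RE mean, while WT was lowest at ZT0 and highest at ZT12. The RE amplitude was 0.27 (SE 0.06, adjusted p 0.000917), with a peak at ZT18.8, the latest in RE, against 0.11 in WT (SE 0.06, adjusted p 0.273) and 0.14 in KO (SE 0.06, adjusted p 0.424).

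The difference in the Dkc1 rhythm between WT and RE was 0.34 (SE 0.08, adjusted p 0.00924) and was called whichever liver was left out. Dkc1 exons overlap those of Mpp1 on the other strand. Gar1 was called in RE (0.31, SE 0.10, adjusted p 0.0330), a call that ended without any of 5 livers, none of them at ZT16. At RE ZT16 1 liver read 15.4 FPKM beside 4.99 and 4.44 FPKM. Without RE ZT16 liver 0 the Gar1 call held (0.33, adjusted p 0.00277). Nop10 and Nhp2 were called in neither genotype, with amplitudes of 0.04 to 0.10 there.

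The small subunit factors were called for 4 of 13 in WT (30.8%, beside 34.8% of all tested genes) and 8 of 13 in RE (61.5%, beside 46.8%). Rrp12, which takes part in export and maturation of pre-ribosomes (chromosome 19, 41862851 to 41896173), had the largest WT amplitude of all 43 members. Its WT livers read 1.36, 1.55 and 2.05 FPKM at ZT4 and 4.56, 4.63 and 3.97 FPKM at ZT16, a 2.65-fold rise in the mean without overlap. Its RE livers read 1.56, 1.54 and 2.64 FPKM at ZT4 and 8.98, 4.39 and 2.44 FPKM at ZT16, and these overlapped. Its KO livers read 2.50, 3.51 and 1.78 FPKM at ZT4 and 2.81, 3.59 and 4.59 FPKM at ZT16, also overlapping.

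The Rrp12 amplitude was 0.53 in WT (SE 0.10, adjusted p 0.000246, peak ZT15.1), 0.39 in RE (SE 0.10, adjusted p 0.00522, peak ZT15.7) and 0.09 in KO (SE 0.10, adjusted p 0.892). The WT call held without any single liver, and the RE call ended without RE ZT16 liver 0 (adjusted p 0.0556). The difference between WT and KO was 0.44 (SE 0.14, adjusted p 0.0865).

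Nob1, the nuclease that makes the final cleavage of 18S rRNA (chromosome 8, 107412486 to 107425051), read 4.53, 5.62 and 3.45 FPKM in RE at ZT0 and 7.84, 9.25 and 7.57 FPKM at ZT12. Those livers did not overlap, and the RE amplitude was 0.46 (SE 0.10, adjusted p 0.000876, peak ZT13.5). In WT the amplitude was 0.16 (adjusted p 0.383), and the difference was not called (0.30, adjusted p 0.261). Ltv1, which is needed for export of the small subunit (chromosome 10, 13178140 to 13193168), read 6.10, 5.90 and 7.28 FPKM in RE at ZT4 and 9.73, 9.40 and 11.3 FPKM at ZT20. In WT its livers stayed between 6.25 and 9.46 FPKM with an amplitude of 0.03 (adjusted p 0.890), against 0.25 in RE (SE 0.06, adjusted p 0.00136, peak ZT17.6). The difference of 0.29 was called (SE 0.08, adjusted p 0.0296), but not without RE ZT16 liver 0 (adjusted p 0.0659) or without any of 7 others.

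Nat10, the acetyltransferase of 18S rRNA (chromosome 2, 103721256 to 103761270), was called in WT and not in RE. In WT it read 4.43, 3.94 and 3.98 FPKM at ZT8 and 6.55, 6.14 and 5.62 FPKM at ZT16, without overlap, for an amplitude of 0.22 (SE 0.04, adjusted p 0.000683, peak ZT18.1). In RE its amplitude was 0.04 (SE 0.04, adjusted p 0.782) and in KO 0.05 (SE 0.04, adjusted p 0.847). The difference between WT and RE missed the threshold (0.19, SE 0.06, adjusted p 0.0892).

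The other small subunit members called in RE were Wdr43 and Wdr75, parts of the early pre-rRNA processing complex, Tsr1, a GTPase-like late factor, Heatr1 and Nop14, with amplitudes from 0.18 (Nop14) to 0.45 (Tsr1). In WT Nop14 and Imp4 were called as well, calls that ended without any of 11 livers for Nop14 and 3 for Imp4. Imp4 peaked at ZT4.67, the earliest of all, with the smallest called amplitude (0.12, SE 0.04, adjusted p 0.0265). Imp3, Noc4l and Bysl were called in neither with the spread pooled over genotypes. In the WT livers fitted alone limma called them (adjusted p 0.0397, 0.0340 and 0.00978), and also Wdr43 (0.0326) and Tsr1 (0.0163). In the RE livers alone the calls of Nop14, Heatr1 and Rrp12 ended (adjusted p 0.0665, 0.116 and 0.0586).

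Of the large subunit factors, 2 of 12 were called in WT (16.7%, below the 34.8% of all tested genes) and 6 of 12 in RE (near the 46.8% of all tested genes). In the WT livers fitted alone, limma also called Rrs1, Rrp1b, Noc2l, Grwd1 and Ppan (adjusted p 0.0111, 0.0104, 0.0438, 0.00723 and 0.0104). In the RE livers alone the calls of Pes1, Nop16 and Ppan ended (adjusted p 0.0523, 0.177 and 0.176). The shares of all tested genes in those fits are not given here. Nop16 (chromosome 13, 54584185 to 54590090) was the one member whose rhythm differed between WT and KO. In WT it read 16.1, 16.3 and 17.9 FPKM at ZT4 and 22.9, 26.8 and 26.5 FPKM at ZT16. In KO it read 23.4, 21.4 and 19.1 FPKM at ZT4 and 20.1, 21.7 and 23.9 FPKM at ZT16. The WT livers at these times were apart and the KO livers overlapped. The times were those of the lowest and highest WT mean, while KO was lowest at ZT8. That choice favours a gap in WT.

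The Nop16 amplitude was 0.31 in WT (SE 0.06, adjusted p 0.000187, peak ZT18.8), 0.16 in RE (SE 0.06, adjusted p 0.0468, peak ZT13.5) and 0.03 in KO (SE 0.06, adjusted p 0.949). The RE call ended without any of 25 livers. The difference from KO was 0.28 (SE 0.08, adjusted p 0.0497) and ended without any of 38 livers (adjusted p up to 0.101). The difference between WT and RE was 0.32 (SE 0.08, adjusted p 0.0138), and it held without any single liver. Of the 11 members called in both genotypes, it had the earliest RE peak relative to its WT peak.

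Wdr12, which with Pes1 and Bop1 forms the PeBoW complex of large subunit assembly (chromosome 1, 60069785 to 60098645), read 5.05, 4.61 and 6.98 FPKM in RE at ZT4 and 12.7, 9.68 and 8.30 FPKM at ZT16, without overlap. Its RE amplitude was 0.33 (SE 0.06, adjusted p 0.000169, peak ZT16.1), and the WT amplitude was 0.16 (SE 0.06, adjusted p 0.0811). Of its partners, Pes1 was called in RE (0.15, adjusted p 0.00541) and Bop1 in neither. Exons of Wdr12 overlap Carf on the other strand. Rrs1, which helps to bring 5S rRNA into the subunit (chromosome 1, 9545408 to 9547455), read 8.51, 6.70 and 5.20 FPKM in RE at ZT0 and 22.8, 12.4 and 10.8 FPKM at ZT16. Those livers were apart, and the RE amplitude was 0.51 (SE 0.11, adjusted p 0.000785, peak ZT13.9), against 0.29 in WT (adjusted p 0.0873) and 0.21 in KO (adjusted p 0.581), the largest of any member in KO. Noc3l and Ppan were also called in RE and the rRNA methylase Nop2 in WT. The Ppan call ended without any of 10 livers and the Nop2 call without any of 14. Rrp1b, Noc2l, Ddx18 and Grwd1 were called in neither with the spread pooled over genotypes.

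**Figure D5:**
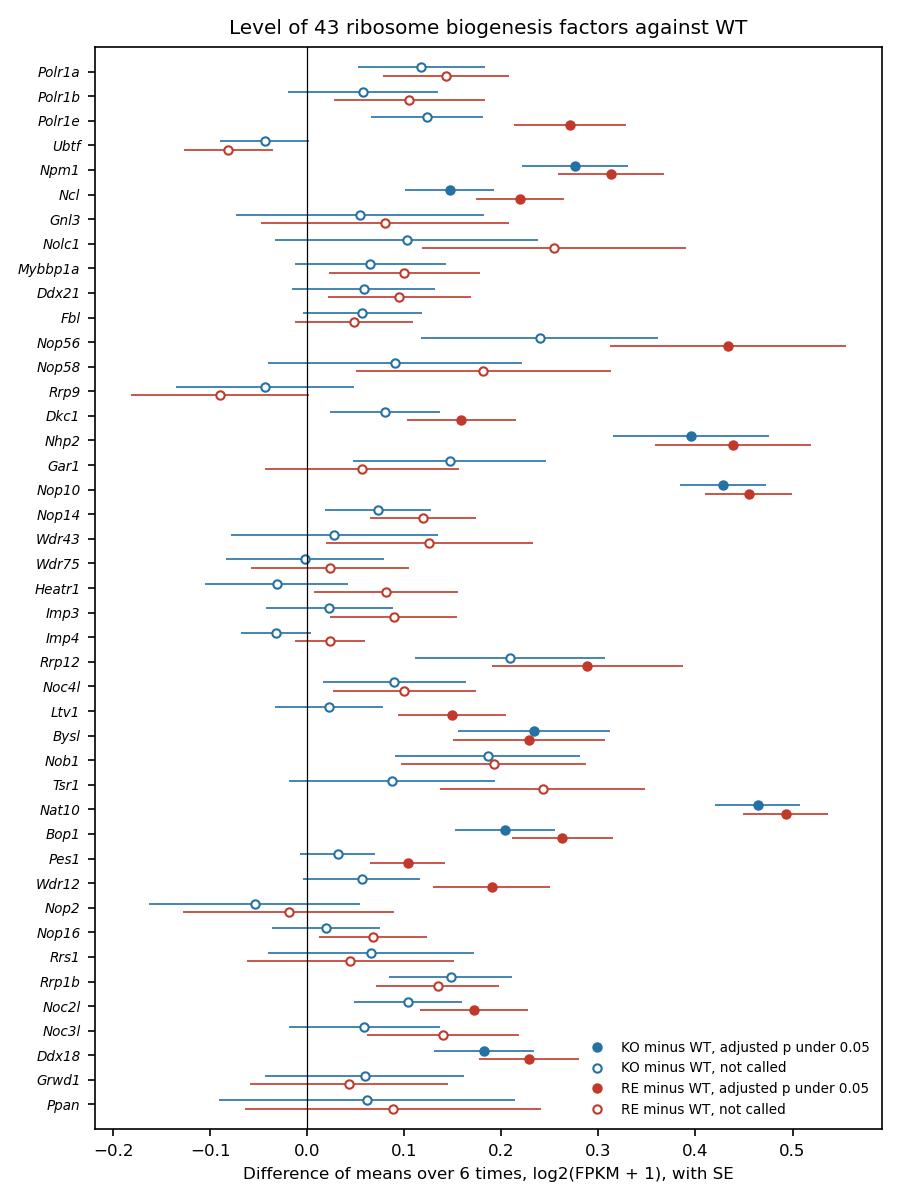
Differences in level from WT, as means over the 6 times of log2(FPKM + 1) with SE (x axis), for each of the 43 factors in KO and in RE. Filled points passed an adjusted p under 0.05 (8 in KO, 16 in RE), and all of these lie above 0.

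Apart from time of day, part of the members stood at a higher level in both mutant genotypes than in WT. In KO this was no more frequent than among all tested genes. Alb was listed at 0 in all 18 WT livers, 2 RE livers and 1 KO liver. Whatever made that difference cannot be told apart from genotype in these level comparisons with WT. In KO 8 of 43 members were called higher and 0 lower, beside 42.3% of all tested genes called, 22.1% higher and 20.2% lower. In RE 16 were called higher and 0 lower, beside 45.9% called, 24.2% higher and 21.7% lower. The members' share called higher was 18.6% in KO, below the 22.1% of all tested genes called higher, and 37.2% in RE, above the 24.2%. The median difference of the 43 members was 0.07 (log2) in KO and 0.13 in RE, beside 0.00 and 0.01 over all tested genes. Between RE and KO limma called 0 members, beside 0.192% of all tested genes (0.0732% higher and 0.119% lower in RE), with 3 at an unadjusted p under 0.05. All 8 members called in KO (Npm1, Ncl, Nhp2, Nop10, Bysl, Nat10, Bop1 and Ddx18) were also called in RE, which shares the WT livers with it. In RE the others were Polr1e, Nop56, Dkc1, Rrp12, Ltv1, Pes1, Wdr12 and Noc2l.

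Nat10 had the largest difference. Over 18 livers each it ran from 3.94 to 6.55 FPKM in WT (median 5.04), from 6.49 to 8.57 in KO (median 7.15) and from 6.03 to 8.76 in RE (median 7.50). It was higher than in WT by 0.46 in KO (SE 0.04, adjusted p 1.72e-11) and by 0.49 in RE (SE 0.04, adjusted p 3.19e-12), and the ranges overlapped only at their ends. Nop10 ran from 90.5 to 123 FPKM in WT (median 104), from 111 to 171 in KO (median 142) and from 127 to 169 in RE (median 142). Every RE liver was above every WT liver. The differences were 0.43 in KO (SE 0.04, adjusted p 1.98e-10) and 0.45 in RE (SE 0.04, adjusted p 4.10e-11).

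Nhp2, another box H/ACA core protein, ran from 21.9 to 32.2 FPKM in WT, 26.6 to 52.8 in KO and 27.1 to 61.4 in RE, so that the ranges overlapped. It was higher by 0.40 in KO (SE 0.08, adjusted p 0.000105) and by 0.44 in RE (SE 0.08, adjusted p 2.05e-05). Its exons overlap Rmnd5b on the other strand. Npm1 was higher by 0.28 in KO (SE 0.05, adjusted p 7.37e-05) and by 0.31 in RE (SE 0.05, adjusted p 9.78e-06), with WT livers between 74.9 and 128 FPKM and KO livers between 86.7 and 141 FPKM. Among the other members called in both, Bysl was higher by 0.23 in KO and in RE, Bop1 by 0.20 and 0.26, Ddx18 by 0.18 and 0.23 and Ncl by 0.15 and 0.22. Of those called in RE and not in KO, Nop56 was higher by 0.43, Rrp12 by 0.29 and Polr1e by 0.27. Exons of Bop1 overlap Mroh1, and those of Bysl overlap the cyclin gene Ccnd3, on the other strand.

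All 8 KO calls, and 14 of the 16 RE calls, held without any single liver. The exceptions in RE were Ltv1 and Pes1, which were not called without RE ZT16 liver 0 (adjusted p 0.0596 and 0.0597). Markers of other cells moved with the same comparisons. Of 7 Kupffer cell markers 4 were lower in KO and 7 in RE than in WT, with a summed level of 64.0 to 146 FPKM over the WT livers, 40.0 to 145 in KO and 29.7 to 130 in RE, and none at 0. Of 5 bile duct markers 2 were higher in each, and the median summed level was 27.5 FPKM in WT, 64.2 in RE and 68.9 in KO. The 1 testable of 5 pancreas markers was higher in each, and the 3 testable of 5 gut markers were lower in KO, 1 of them also in RE. Both testable of 6 lymphocyte markers were lower in RE. Of 6 endothelial markers 1 was higher and 1 lower in each, and of 6 stellate cell and fibroblast markers 1 was higher in KO. Of 7 markers of dividing cells 3 could be tested. Of these 0 were called rhythmic by limma in WT, RE or KO (1 at an unadjusted p under 0.05, in KO), 1 was higher in KO, and their sum was 1.86 to 4.75 FPKM in WT, 1.28 to 6.85 in RE and 1.39 to 16.4 in KO. Other marker lists held rhythms: 5 of 8 hepatocyte markers were called in WT and 6 in RE, 3 of 5 bile duct markers in WT and 1 in RE, and 1 of 3 testable gut markers in WT and 2 in RE. Further calls were 1 of 6 endothelial markers in RE, 1 of 6 stellate cell and fibroblast markers in WT and 1 of 2 testable neutrophil markers in WT. The part of these markers in the members' levels and rhythms was not tested.

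Other genes of the pathway, on lists set down with earlier results known, were counted in the same fit. The shares of all tested genes called rhythmic were 34.8% in WT, 46.8% in RE and 0.0366% in KO. Of 11 other Pol I genes 4 were called rhythmic in WT, 7 in RE and 0 in KO by limma (0 at an unadjusted p under 0.05). Taf1d, a subunit of the Pol I selectivity factor, had amplitudes of 0.28 in WT (adjusted p 0.0174, peak ZT9.47) and 0.41 in RE (adjusted p 0.000312, peak ZT13.2). Of 77 tested other assembly factors 22 were called in WT (28.6%), 46 in RE (59.7%) and 0 in KO by limma (4 at an unadjusted p under 0.05). Their median amplitude was 0.14 in WT and 0.17 in RE, close to the 0.14 and 0.16 of all tested genes. Rcl1, which takes part in small subunit cleavage, had a larger amplitude than most members, 0.50 in WT (SE 0.06, adjusted p 8.14e-08) and 0.45 in RE (SE 0.06, adjusted p 2.02e-06), with peaks at ZT6.61 and ZT10.2. Ftsj3, a large subunit factor, reached 0.28 in WT (adjusted p 0.00112) and 0.40 in RE (adjusted p 1.15e-05), with peaks at ZT13.8 and ZT14.8.

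Of 12 RNA exosome genes, whose products trim rRNA, 2 were called in WT and 7 in RE. For this list and those below, the shares over all tested genes were 34.8% in WT, 46.8% in RE and 0.0366% in KO. Of 10 tested MYC network genes 4 were called in WT and 7 in RE, among them Max, the partner of MYC, with 0.26 in WT (adjusted p 0.0202, peak ZT11.5) and 0.39 in RE (adjusted p 0.000355, peak ZT12.9). Of 14 mTORC1 genes 7 were called in WT and 11 in RE. Mtor, the kinase itself, had 0.29 in WT (adjusted p 2.11e-06, peak ZT8.38) and 0.12 in RE (adjusted p 0.0405, peak ZT8.07). In KO 0 genes of these 3 lists were called by limma (0, 1 and 2 at an unadjusted p under 0.05).

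The proteins that the factors build into ribosomes were different. Of 75 cytosolic ribosomal protein genes, 0 were called rhythmic in WT by limma (3 at an unadjusted p under 0.05), 5 in RE and 0 in KO (1 at an unadjusted p under 0.05). The shares over all tested genes were 34.8%, 46.8% and 0.0366%. The level of these 75 genes was called higher than in WT for 68 in KO and 72 in RE and lower for 0, with median differences of 0.24 and 0.28 (log2). Of all tested genes, 22.1% were called higher in KO and 24.2% in RE.

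A feature that the list did not use is the presence of small nucleolar RNA genes inside the members' own transcripts, in a class of genes known as snoRNA hosts. In the GENCODE annotation of GRCm38, 8 members hold 23 such genes: Nop56 holds 5, Nop58 4, Ncl, Gnl3 and Wdr43 3 each, Tsr1 and Ppan 2 each and Dkc1 1. All 8 were called rhythmic in RE and 3 of them in WT, against 18 and 15 of the other 35 members. Of all tested genes, 46.8% were called in RE and 34.8% in WT. The RE calls of Nop58 and Ppan ended without RE ZT16 liver 0 (adjusted p 0.0672 and 0.0525). They also ended in the RE livers alone (adjusted p 0.0557 and 0.176). The median amplitude of the 8 in RE was 0.45, against 0.18 for the others, and in WT 0.29 against 0.19. Without RE ZT16 liver 0, all 8 had a smaller RE amplitude. This grouping was made after the values were seen, and no test was made. Exons of 20 members overlap those of another gene, mostly on the other strand, and since the sources do not say whether reads were counted by strand, the division of reads in those overlaps is uncertain.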

How the data were processed

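Total RNA of 54 mouse livers (18 groups of 3) was sequenced. Values are FPKM per gene symbol, as deposited by the authors. Reads were aligned with TopHat to mm10, per the submitters' processing notes, and the tool, annotation and strand setting of the FPKM step were not given in the sources used here. Column names gave genotype and time, not which labelled liver each was, so livers are numbered 0 to 2 as in the columns. Total FPKM per liver ran from 572995 to 751399, and read depth is known only relatively: 84.5% of low values in 1408 low genes lay within 0.15 of whole reads.

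The 10932 of 24346 genes whose mean reached 1 FPKM in some group were analysed as log2(FPKM + 1) with limma 3.58.1 in R 4.3.3, with 18 group means, a variance trend and 36 residual degrees of freedom. Changes on this scale understate those of low genes. In 9 tests per gene, 24 h rhythms, their differences (length of the difference vector, log2) and mean levels were compared, with Benjamini-Hochberg adjustment over all tested genes and a threshold of 0.05. The code was tested on simulated data. Members and lists were chosen with earlier results of these data known. Values by liver are given for up to 3 members of each role with the smallest adjusted p for rhythm, those with a called level difference (up to 6), and those whose rhythm differed. Times shown were mostly those of the lowest and highest mean in a genotype. How often all tested genes separate at times picked so was not counted. Promoter windows came from RefSeq (GRCm38.p6) and gene positions from GENCODE (GRCm38). Alternatives were the pseudocount, the filter, median scaling, no trend, any shape over the times, the compared genotypes alone, leaving out each liver, and, added after seeing the data, leaving out 3 livers with Alb at 0.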

Additional observations from a re-analysis of the deposited data

Results flagged for a closer look

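In 5 tests a member's rhythm differed between genotypes at an adjusted p under 0.05 (limma). The difference was 0.28 (log2) for Nop16 between WT and KO. Between WT and RE it was 0.67 for Gnl3, 0.34 for Dkc1, 0.29 for Ltv1 and 0.32 for Nop16. Those of Dkc1 and Nop16 between WT and RE were called whichever single liver was left out. The Gnl3 call ended without any of 4 livers and the Ltv1 call without any of 8, RE ZT16 liver 0 among both. The Nop16 call between WT and KO ended without any of 38 livers.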

How the results depend on the processing

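No paired analysis was possible because the columns carry no replicate number of the labels. Members with a rhythm in WT numbered 18, but 31 when the WT livers were fitted alone and 10 with any shape over the 6 times. In RE they numbered 26, and 14 in the RE livers alone. The rhythm difference between WT and KO, called for 1 member, was called for 0 without the filter, 0 without the variance trend, 0 with any shape, 4 with those genotypes alone and 2 without the 3 livers with Alb at 0, an alternative chosen after seeing the data. That between WT and RE, called for 4, was called for 0 with any shape. Leaving out single livers gave 12 to 23 rhythms in WT, 17 to 32 in RE and 0 to 0 in KO. It gave 0 to 4 rhythm differences between WT and KO, 2 to 6 between WT and RE (2 without WT ZT4 liver 2 or WT ZT16 liver 1) and 0 to 3 between RE and KO (3 without KO ZT16 liver 2). It gave 8 to 10 level differences in KO, 14 to 22 in RE and 0 to 0 between RE and KO. The cause of these changes was not tested. For single members, 3745 leave-one-out values kept their side of the threshold and direction, 197 lost the call and 0 reversed. Under the other alternatives 2132 kept both, 43 lost the call, 32 gained it and 0 reversed. Low members such as Rrp1b rest on few reads, and FPKM without read totals allows no counting interval.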
